A study of Mus musculus with 6 samples.

Results

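The genes encoding 6 secretory proteins of the male accessory glands were read out from a count table of thymic epithelial cells: Svs2, Svs4, Svs5 and Svs6 (seminal vesicle secretory proteins), Tgm4 (prostate transglutaminase) and Sbp (spermine-binding protein of the prostate). They were chosen by symbol, and all 6 were found among the 15643 genes of the table. The libraries were made by MARS-seq, which tags each captured 3′ end with a unique molecular identifier (UMI), from mature medullary thymic epithelial cells (mTEChi), the MHC class II-high fraction of the thymic medulla. All cells came from NOD mice, a strain prone to autoimmune diabetes, aged 4.5 weeks. The 3 libraries numbered 745, 750 and 753 were labelled Aire+/+ and the 3 numbered 746, 748 and 749 Aire-/-. Neither the part of Aire that the allele lacks nor the sex of the mice is in the labels, nor is it said there that the numbers stand for different animals. The p-values therefore rest on the spread between libraries, which may be partly technical.

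Semen of rodents clots into a copulatory plug when the prostate transglutaminase TGM4 cross-links seminal vesicle proteins, SVS2 foremost among them. The Svs genes sit beside the protease inhibitor genes of the WFDC cluster and are known for androgen-dependent, almost gland-restricted expression and for fast sequence change between species. AIRE is the transcriptional regulator through which mTEChi express many genes of peripheral tissues, so that developing T cells meet their products in the thymus. SVS2 is known as a prostate autoantigen of Aire-deficient mice, and TGM4 as a target of autoantibodies in male patients with autoimmune polyendocrine syndrome type 1, the human disease of AIRE loss.

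The promoters of the 6 genes are shown because 5 of the genes were without UMIs in the same libraries; they are the 100 bases before the start site, from RefSeq sequences of GRCm38.p6, the build that mm10 names. Capitals mark TATAAA where it began 20 to 40 bases before the start. Each is written 5′ to 3′ on the strand of its gene.
Svs2 (chr2:164238342-164238441, minus strand): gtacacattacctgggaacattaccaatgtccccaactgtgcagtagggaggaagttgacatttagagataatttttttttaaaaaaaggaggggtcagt
Svs4 (chr2:164278308-164278407, minus strand): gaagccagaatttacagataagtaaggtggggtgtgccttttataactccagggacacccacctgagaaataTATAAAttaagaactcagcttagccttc
Svs5 (chr2:164332665-164332764, plus strand): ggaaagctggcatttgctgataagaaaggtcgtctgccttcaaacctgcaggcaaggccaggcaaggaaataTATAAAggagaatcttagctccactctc
Svs6 (chr2:164316651-164316750, plus strand): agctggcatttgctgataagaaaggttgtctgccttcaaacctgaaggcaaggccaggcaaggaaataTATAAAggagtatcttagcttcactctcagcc
Tgm4 (chr9:123034641-123034740, plus strand): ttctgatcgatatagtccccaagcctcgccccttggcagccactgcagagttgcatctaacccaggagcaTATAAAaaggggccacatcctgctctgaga
Sbp (chr17:23941578-23941677, plus strand, the second of 3 listed start sites): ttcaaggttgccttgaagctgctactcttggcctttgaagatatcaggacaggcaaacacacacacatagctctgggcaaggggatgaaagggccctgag

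TATAAA stood in that window in 4 of the 6 genes, beginning 28 bases before the start in Svs4 and Svs5, 32 in Svs6 and 30 in Tgm4. Of all 32544 promoters in the sequence table, 1.99% hold it there on the strand of the gene, and the difference was not tested. Svs2 and the 3 start sites of Sbp did not have these letters in the window. Both genes were at 0 UMIs in the Aire-/- libraries and Tgm4 was not, so nothing about the counts is drawn from the motif. Over the 300 bases from 250 before to 50 after the start, the member promoters held 0 to 6 CpG dinucleotides, and the median over all promoters was 7, with quartiles of 3 and 20. The promoters of Svs5 and Svs6 were 96.3% identical over 296 aligned columns, so TATAAA in both is not a separate find. Svs4 was 63.7% identical to Svs5 and 63.0% to Svs6. A search for a half-site of steroid hormone response elements, TGTTCT and its reverse complement AGAACA, found 1 in Svs5, 1 in Svs6 and 1 at the third start site of Sbp. At least 1 of these half-sites was present in 18.9% of all promoters of this length, so the matches are described and nothing is drawn from them.

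Nearly all transcripts of the 6 genes were counted in the libraries labelled Aire+/+. Their UMIs summed to 102, 108 and 157 in libraries 745, 750 and 753 and to 2, 1 and 0 in libraries 746, 748 and 749. Every Aire+/+ library lay far above every Aire-/- library, and the 3 UMIs of the Aire-/- libraries were all assigned to Tgm4. Library totals ran from 2736932 to 2887321 UMIs in the Aire+/+ libraries and from 1014581 to 1960802 in the Aire-/- libraries, so the Aire+/+ libraries were the deeper ones. The Aire+/+ group held 8463741 UMIs and the Aire-/- group 4799615. At the Aire+/+ rate, 135 UMIs of Sbp, 37.4 of Svs4, 15.3 of Svs5, 7.94 of Tgm4 and 6.24 each of Svs2 and Svs6 would have been counted in the Aire-/- libraries. In these bulk libraries, fewer cells carrying a transcript and less transcript per cell cannot be told apart.

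**Figure D1:**
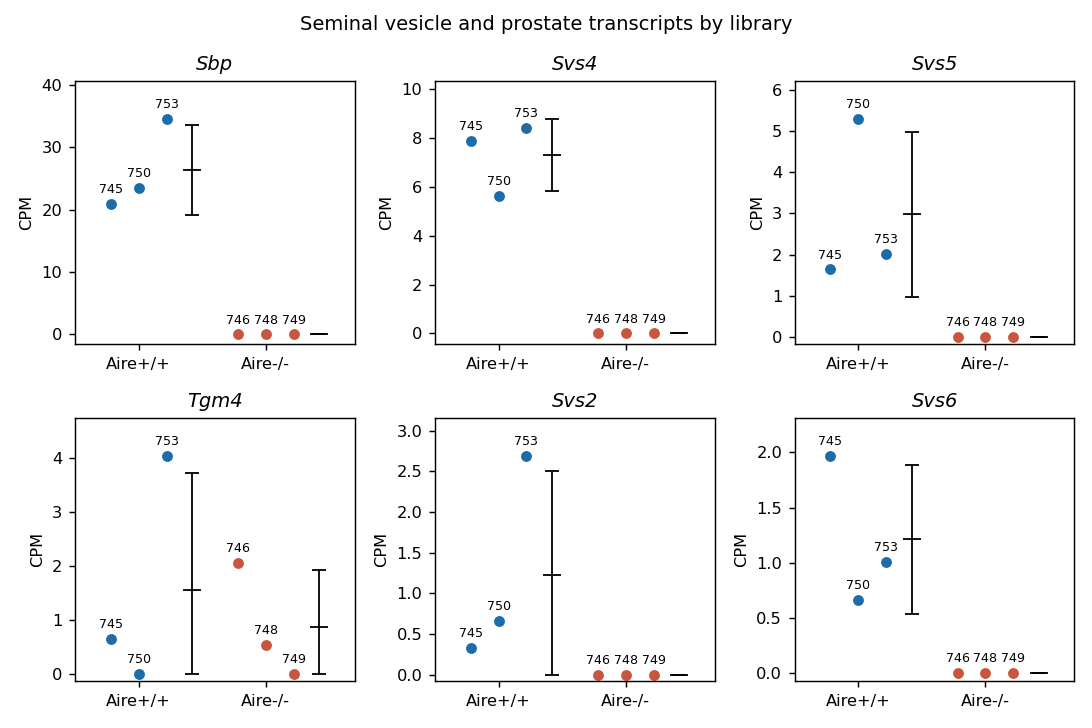
Level in CPM (UMIs scaled to a common library size with edgeR's TMM factors, linear axes that differ between panels) of the 6 genes in each library, in order of their Aire+/+ mean; points are libraries, labelled by number, and bars give the mean and SD of 3 libraries, with the lower end stopped at 0. Sbp, Svs4, Svs5, Svs2 and Svs6 are at 0 in libraries 746, 748 and 749, while the Tgm4 points of both genotypes overlap.

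Among the 4 Svs genes, Svs4, which encodes a small basic secretory protein, was the most abundant transcript. Svs4 (chromosome 2, positions 164275952 to 164278459 of mm10, minus strand, 3 exons) had 24, 17 and 25 UMIs in libraries 745, 750 and 753 and 0 in each Aire-/- library. The genotypes did not overlap, and the Aire+/+ libraries were close to each other, at 7.29 ± 1.48 CPM (SD, n = 3). With 3 UMIs over the Aire-/- group as the floor that a count of 0 allows, Svs4 was at least 12.5-fold lower in the libraries labelled Aire-/- (edgeR adjusted p = 0.00046). That bound was 7.38 without library 748 and 7.73 without library 749, because the Aire-/- depth is then smaller. Scaled by TMM factors, as for the p-value, it was 10.9. Bounds of this kind leave out the counting error of the Aire+/+ UMIs.

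Svs5, which encodes another small secretory protein of the same cluster, was seen at lower levels and less evenly. Svs5 (chromosome 2, positions 164332740 to 164334396, plus strand, 3 exons) had 5, 16 and 6 UMIs in libraries 745, 750 and 753 and 0 in the Aire-/- libraries. Library 750 gave 59.3% of its 27 Aire+/+ UMIs (95% Clopper-Pearson interval 38.8 to 77.6%) while holding 33.5% of the Aire+/+ depth. Here and below, the library was picked for being the highest, which raises its share, and the interval does not allow for that. The level was 2.98 ± 2.01 CPM (SD, n = 3) and the pooled UMIs were at least 5.10-fold lower in the Aire-/- group. That bound was 3.13 without library 750, 3.02 without library 748 and 3.16 without library 749. Svs5 was below the filter on low counts and was not tested. With the looser filter, of a minimum count of 3, and with no filter it was called lower (edgeR adjusted p = 0.0144 and 0.0185).

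Svs2, the main plug substrate and the autoantigen named above, was barely detected even in the Aire+/+ libraries. Svs2 (chromosome 2, positions 164235929 to 164238466, minus strand, 3 exons) had 1, 2 and 8 UMIs in libraries 745, 750 and 753 and 0 in the Aire-/- libraries. Library 753 gave 72.7% of its 11 UMIs (interval 39.0 to 94.0%) at 34.1% of the depth. The level was 1.22 ± 1.28 CPM (SD, n = 3), an SD as large as the mean. The pooled UMIs gave a bound of at least 2.08-fold lower, and without library 753 the remaining 3 UMIs are at the floor and give no bound. The bound was 1.23 without library 748 and 1.29 without library 749. With no filter the difference did not pass the threshold (edgeR adjusted p = 0.140).

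Svs6, whose promoter nearly matches that of Svs5, was highest in another library. Svs6 (chromosome 2, positions 164316751 to 164318453, plus strand, 4 exons) had 6, 2 and 3 UMIs in libraries 745, 750 and 753 and 0 in the Aire-/- libraries. Its highest library was 745, with 54.5% of 11 UMIs (interval 23.4 to 83.3%), and library 750, the highest for Svs5, was its lowest. At these counts the share of the highest library is not distinguishable from that library's 32.3% of the depth. Svs6 stood at 1.21 ± 0.677 CPM (SD, n = 3), at least 2.08-fold above the Aire-/- group by pooled UMIs. The bound was 1.40 without library 745, 1.23 without library 748 and 1.29 without library 749, and the test with no filter gave an edgeR adjusted p of 0.105.

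The 4 Svs genes lie within 98.5 kb of chromosome 2, and their sum was more even across the Aire+/+ libraries than any single one of them. A larger count varies less by counting error alone, so nothing about the cluster is drawn from this. Together they had 36, 37 and 42 UMIs in libraries 745, 750 and 753 and none in the Aire-/- libraries. Svs4 gave 57.4% of these 115 UMIs. The highest library was 753 for Svs2 and Svs4, 750 for Svs5 and 745 for Svs6.

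Tgm4, the enzyme that cross-links the plug, was the only one of the 6 genes seen in libraries labelled Aire-/-. Tgm4 (chromosome 9, positions 123034726 to 123067561, plus strand, 14 exons) had 2, 0 and 12 UMIs in libraries 745, 750 and 753 and 2, 1 and 0 in libraries 746, 748 and 749. The genotypes overlapped, since library 750 had none and library 746, the shallowest, had 2. Library 753, the highest, held 85.7% of the 14 Aire+/+ UMIs (interval 57.2 to 98.2%) and 34.1% of the depth. Levels were 1.56 ± 2.16 and 0.864 ± 1.06 CPM (SD, n = 3 each). The pooled ratio of Aire+/+ over Aire-/- was 2.65, with an exact counting interval of 0.739 to 14.4, and with no filter the edgeR adjusted p was 0.608. Without library 753 the ratio fell to 0.574, so its direction rests on 1 library. It was 6.26 without library 746, 3.98 without library 750 and 1.64 without library 749. The Tgm4 counts carry a further limit: the last 1402 bases of the gene (positions 123066160 to 123067561) overlap Zdhhc3, a palmitoyltransferase gene on the minus strand with 53 and 28 UMIs in the Aire+/+ and Aire-/- groups. The strand setting of the counting is not given in the sources used here. Whether reads of the overlap were counted for Tgm4, for Zdhhc3 or for neither is therefore not known.

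Sbp, an androgen-dependent polyamine-binding protein of the ventral prostate, was the most abundant of the 6 transcripts and made up 64.9% of their Aire+/+ UMIs. Sbp (chromosome 17, positions 23941672 to 23945607, plus strand, 4 exons) had 64, 71 and 103 UMIs in libraries 745, 750 and 753 and 0 in every Aire-/- library. All Aire+/+ libraries were high, with 753 the highest at 43.3% of the UMIs (interval 36.9 to 49.8%) and 34.1% of the depth. The level was 26.3 ± 7.24 CPM (SD, n = 3) in the Aire+/+ libraries, and Sbp was at least 45.0-fold lower in the libraries labelled Aire-/- (edgeR adjusted p = 2.21e-05). The bound was 26.6 without library 748, 27.9 without library 749 and 30.5 without libraries 753 and 746. Scaled by TMM factors, as for the p-value, it was 39.2. The fitted log2 fold changes, which depend on the prior count and are no bounds, were -8.89 for Sbp (standard error 0.81) and -7.05 for Svs4 (standard error 0.99).

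Read together, 2 of the 6 genes (Sbp and Svs4) passed the filter, and both were called lower. The other 4 were too low to test at the minimum count of 10. Among the 11956 genes tested, edgeR called 12.1% lower and 8.59% higher in the libraries labelled Aire-/-. Genes pass the filter through their Aire+/+ libraries here, so the 2 calls among 2 tested genes are not a share of the 6. For 5 of the 6 genes every Aire-/- library lay below every Aire+/+ library, which held for 33.5% of all genes in the table. The same 5 genes had 0 UMIs in all Aire-/- libraries, against 5.48% of all genes, a share over genes of every level and not matched for low counts. With the looser filter or none, 3 of the 6 were called lower (Svs5 in addition), where 14.2% and 13.7% of the genes then tested were called lower. In the authors' deposited table, where 9.79% of genes were higher in Aire+/+ at an adjusted p of 0.05, the log2 fold change of Aire+/+ over Aire-/- was 7.67 for Sbp and 5.82 for Svs4, and both are marked as selected. That table gives Svs5 4.53 with an adjusted p of 0.0230, not selected, and Svs2, Svs6 and Tgm4 adjusted p-values of 0.287, 0.271 and 0.745.

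By Aire+/+ level the order was Sbp, Svs4, Svs5, Tgm4, Svs2 and Svs6. A single UMI marks 1 captured 3′ end whatever the length of the transcript, so these CPM levels were not divided by length. The libraries of Sbp and Svs4 did not overlap, nor did those of Svs4 and Svs5, whereas Svs5, Tgm4, Svs2 and Svs6 overlapped each with the next. The order of the last 4 is therefore not resolved by these libraries. The plug enzyme and its main substrate stood in the low group, and the most abundant transcript was a ventral prostate protein.

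**Figure D2:**
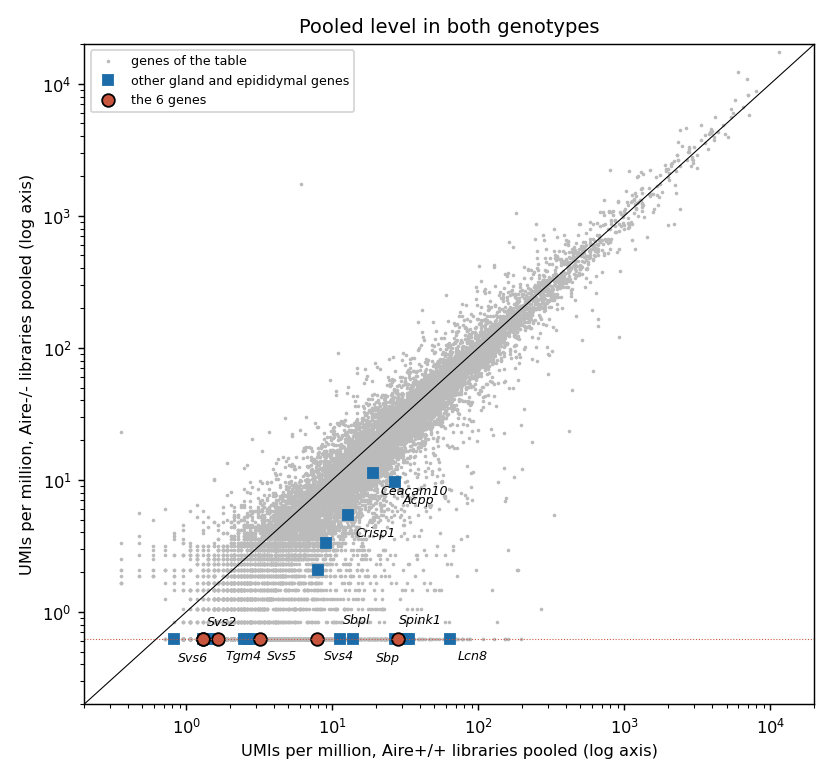
Pooled UMIs scaled to the group's total in the Aire+/+ libraries (horizontal, log axis) and in the Aire-/- libraries (vertical, log axis), for all 15643 genes in grey, other male gland and epididymal genes as blue squares and the 6 genes as red circles. Genes at or under 3 UMIs in a group are drawn at 3 UMIs (dotted line for Aire-/-), which holds all 6 genes, Tgm4 with exactly 3, while Acpp and Ceacam10 lie nearer the line of equal level.

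Other secretory proteins of the seminal vesicle and prostate gave a mixed picture. Of 17 listed, 6 were in the table and 4 were tested: 3 were called lower, none higher by edgeR or DESeq2 and none higher at an unadjusted p under 0.05. Over all tested genes, 12.1% were called lower. In this and the lists below, genes such as Sbpl and Spink1 passed the filter through the Aire+/+ libraries alone, so the calls are no share of a list. Spink1, a trypsin inhibitor secreted by the pancreas and the mouse seminal vesicle, had 89, 74 and 66 UMIs in libraries 745, 750 and 753 and 0, 1 and 0 in 746, 748 and 749. Its pooled ratio was 130, with a counting interval of 23.1 to 5151 (edgeR adjusted p = 4.85e-06), and its level of 25.3 ± 3.59 CPM (SD, n = 3) was close to that of Sbp. Sbpl, the neighbour and relative of Sbp, had 26, 29 and 63 UMIs against none, and was at least 22.3-fold lower with the Aire-/- label (edgeR adjusted p = 0.00061). Sbpl, like Sbp, was highest in library 753, whereas Spink1 was highest in library 745.

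Acpp and Ceacam10 of the same list were counted in every Aire-/- library. Acpp, the prostatic acid phosphatase, was at 25.2 ± 4.52 and 9.61 ± 5.72 CPM (SD, n = 3 each), a change of -1.31 on the log2 scale (standard error 0.33, edgeR adjusted p = 0.0131). The call was lost without library 750 (edgeR adjusted p = 0.0617), and the change was -2.03 without library 748 and -0.99 without library 749. Ceacam10, a secreted adhesion-family protein of the seminal vesicle, had 48, 61 and 52 UMIs and 6, 24 and 24 UMIs and did not pass the test (log2 fold change -0.58, edgeR adjusted p = 0.190). Of the 2 untested genes, Azgp1, a zinc-binding secretory protein, had 7, 5 and 9 UMIs and 9530003J23Rik had 6, 1 and 0, both with 0 in every Aire-/- library.

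The protease inhibitor genes that share the chromosome 2 cluster with the Svs genes were partly lower. Of 19 listed, 8 were in the table and 4 were tested, of which 3 were called lower and none higher. DESeq2 gave the same counts, and at an unadjusted p under 0.05 the counts were 4 and none. Over all tested genes, 12.1% were called lower, and Wfdc3 passed the filter through the Aire+/+ libraries alone. Slpi, a secreted inhibitor of leukocyte proteases, fell from 184 ± 50.2 to 29.8 ± 20.6 CPM (SD, n = 3 each; -2.69 on the log2 scale, standard error 0.40, edgeR adjusted p = 0.00036). Wfdc2, expressed widely in epithelia, fell by 0.90 on the log2 scale and remained at 130 ± 16.1 CPM (SD, n = 3; edgeR adjusted p = 0.00059). Wfdc3 had 13, 15 and 14 UMIs and 0, 0 and 1 UMIs, a pooled ratio of 23.8 (counting interval 4.05 to 963, edgeR adjusted p = 0.0019). Wfdc12 had 50, 28 and 31 UMIs and 2, 9 and 14 UMIs and was not called (edgeR adjusted p = 0.0811), but it was without library 749 and with library totals only (edgeR adjusted p = 0.0224 and 0.0360). The number called lower was 6 with a minimum count of 3 and 5 with no filter.

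**Figure D3:**
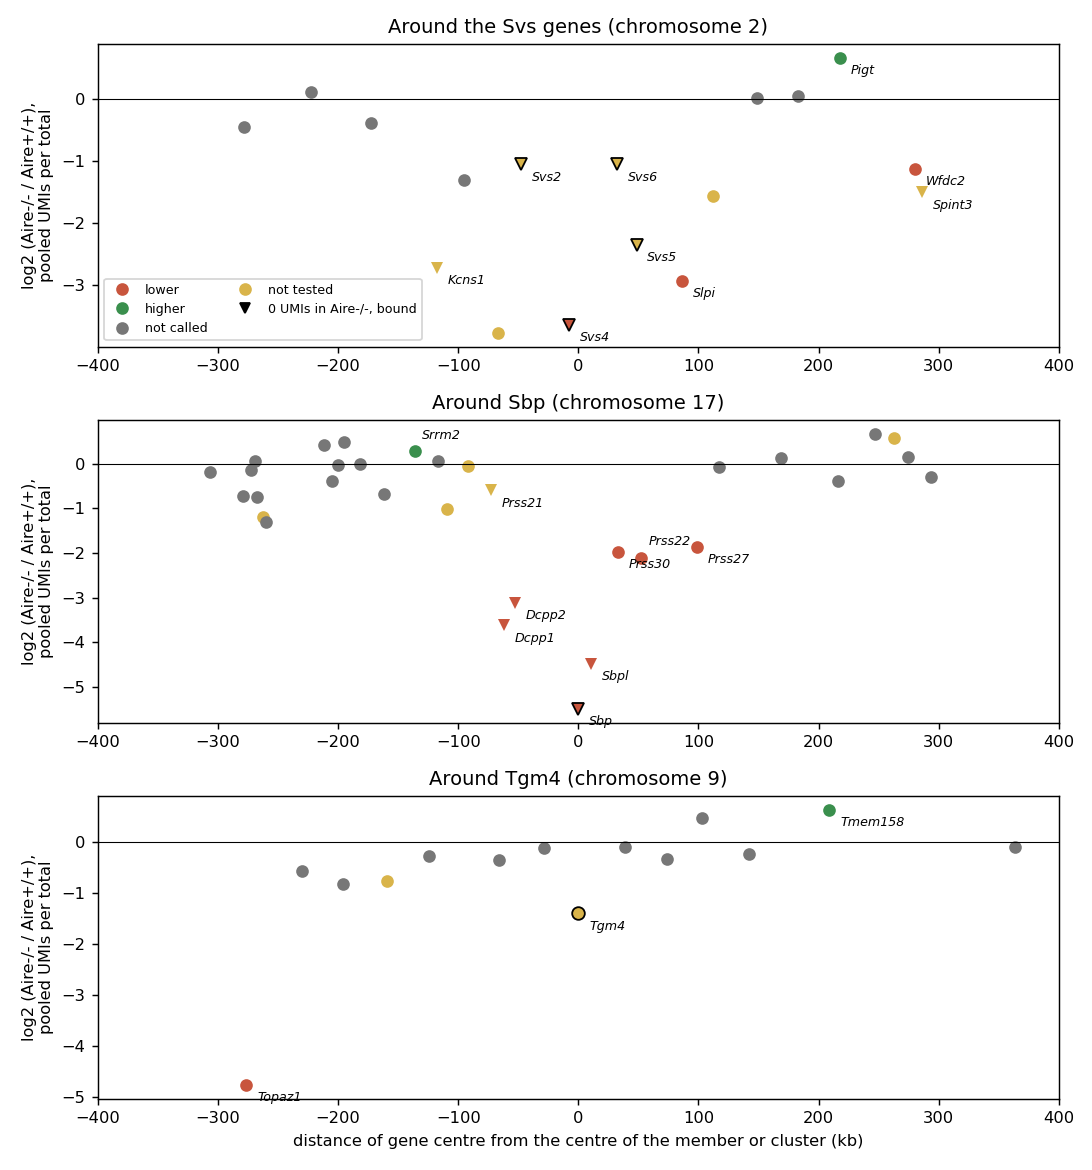
Log2 ratio of pooled UMIs per library total, Aire-/- over Aire+/+ (vertical), for every gene of the table within 300 kb of the Svs genes, Sbp and Tgm4, by the distance of its centre in kb (horizontal); triangles are genes at 0 in the Aire-/- libraries, drawn at the bound of 3 UMIs, and black outlines mark the 6 genes. Around Sbp, 6 neighbours were called lower within about 100 kb, while around Tgm4 the nearest called gene, Tmem158, is higher and lies over 200 kb away. Over all tested genes 12.1% were called lower, and Dcpp1, Dcpp2 and Sbpl passed the filter through the Aire+/+ libraries alone.

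Genes within 300 kb were counted at each of the 3 loci. Over all tested genes, 12.1% were called lower and 8.59% higher, and differences between the loci were not tested. Dcpp1, Dcpp2, Sbpl and Topaz1 passed the filter through the Aire+/+ libraries alone, so the calls are no share of a locus. Around the Svs genes, 13 other genes were in the table and 9 were tested: Slpi and Wfdc2 were called lower, and Pigt, which acts in the attachment of glycolipid anchors, higher (log2 fold change 0.91, edgeR adjusted p = 0.0047, and 0.0501 without libraries 753 and 746). The untested Kcns1, a potassium channel subunit gene, had 35 UMIs and Spint3 15 UMIs in the Aire+/+ group and 0 in the Aire-/- group. Widely expressed genes flanking the cluster were not called, among them Ywhab, Stk4, Tomm34, Sdc4 and Sys1, except that Ywhab was called lower with library totals only (log2 fold change -0.46, edgeR adjusted p = 0.0439).

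Around Sbp, 31 other genes were in the table and 26 were tested, of which 6 were called lower and 1 higher. A run of adjacent genes of the table, Prss21, Dcpp1, Dcpp2, Sbp and Sbpl, was without UMIs in all libraries labelled Aire-/-. Of these, Prss21, a serine protease gene, had only 6, 0 and 2 UMIs in libraries 745, 750 and 753, overlapped the Aire-/- libraries and was not tested, so its 0 shows no change. Dcpp1 and Dcpp2, which encode demilune cell and parotid proteins, secreted by salivary glands, were at 65 and 46 UMIs in the Aire+/+ group (at least 12.3-fold and 8.70-fold lower, edgeR adjusted p = 0.0038 and 0.0017). The serine protease genes beyond them were lower but still present: the log2 fold change was -1.74 for Prss30, -1.87 for Prss22 and -1.64 for Prss27 (edgeR adjusted p = 0.0094, 0.0033 and 0.0019). Srrm2, a splicing protein gene, was higher (log2 fold change 0.50, edgeR adjusted p = 0.0324). It lost its call with any 1 of the libraries 745, 750, 753, 746 or 748 left out (edgeR adjusted p from 0.0580 to 0.150). The call was also lost with library totals only (edgeR adjusted p = 0.213). Of the neighbours not called, Cldn9, Flywch2 and Tnfrsf12a were each called lower under some alternatives, and Pkmyt1 higher without library 746. Over the last 300 nt, Sbp and Sbpl were 85.7% identical, and no member matched another transcript at 90% or more over 80 nt. Dcpp1 and Dcpp2 matched each other at 93.4% over 290 nt, so their UMIs may have been divided between them or with Dcpp3, which is matched by Dcpp2 at 97.0%.

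Around Tgm4, 13 other genes were in the table and 12 were tested. Topaz1, a germ cell gene, had 96 UMIs and 2 UMIs (log2 fold change -4.40, edgeR adjusted p = 0.00037), and Tmem158, a membrane protein gene, was higher (0.86, edgeR adjusted p = 0.0019). The genes next to Tgm4, Tmem42 and Zdhhc3, were not called. Zfp445 was not called either (edgeR adjusted p = 0.0543) but was called lower under some alternatives, such as library totals only (edgeR adjusted p = 0.0111). Clec3b was called lower only without library 746 (edgeR adjusted p = 0.0342).

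The other transglutaminases were not called. Of 8 listed, 5 were in the table and 2 were tested by edgeR; none was called by edgeR or DESeq2, and none had an unadjusted p under 0.05. Tgm2, the tissue transglutaminase known as the autoantigen of coeliac disease, had 126, 118 and 123 UMIs and 64, 50 and 68 UMIs, or 40.5 ± 1.34 and 44.7 ± 19.6 CPM (SD, n = 3 each; log2 fold change 0.08, edgeR adjusted p = 0.868). That change was -0.12 when scaled by library totals only. F13a1, the A subunit of coagulation factor XIII, was at 11.4 ± 3.67 and 8.46 ± 9.65 CPM (edgeR adjusted p = 0.728) and was called lower without library 749 (log2 fold change -1.85, edgeR adjusted p = 0.0147). The untested Tgm1, the keratinocyte transglutaminase, had 30 and 22 UMIs in the groups. Epb42, a catalytically inactive member of red cells, had 42 and 4 UMIs, with a pooled ratio of 5.95 (counting interval 2.16 to 22.9), and was called lower with a minimum count of 3 (edgeR adjusted p = 0.0475).

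Epididymal secretory proteins, products of the duct next to the glands, were mostly at or near 0 in the Aire-/- libraries. Of 20 listed, 12 were in the table and 7 were tested: 5 were called lower and none higher (4 and none by DESeq2, 6 and none at an unadjusted p under 0.05). Over all tested genes 12.1% were called lower, and Lcn6, Lcn8, Lcn10 and Cst8 passed the filter through the Aire+/+ libraries alone. The 5 untested ones had 0 UMIs in all Aire-/- libraries, as had 5.48% of all genes in the table, a share not matched for low counts. The lipocalin genes Lcn6, Lcn8 and Lcn10 had 271, 544 and 282 UMIs in the Aire+/+ group and 0, 1 and 0 in the Aire-/- group (edgeR adjusted p = 1.16e-05, 4.73e-07 and 6.04e-06). Lcn6 was at least 51.2-fold and Lcn10 at least 53.3-fold lower, and the ratio of Lcn8 was 308 with a counting interval of 55.1 to 12207. Cst8, an epididymal cystatin, was at least 18.1-fold lower (edgeR adjusted p = 0.00015).

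**Figure D4:**
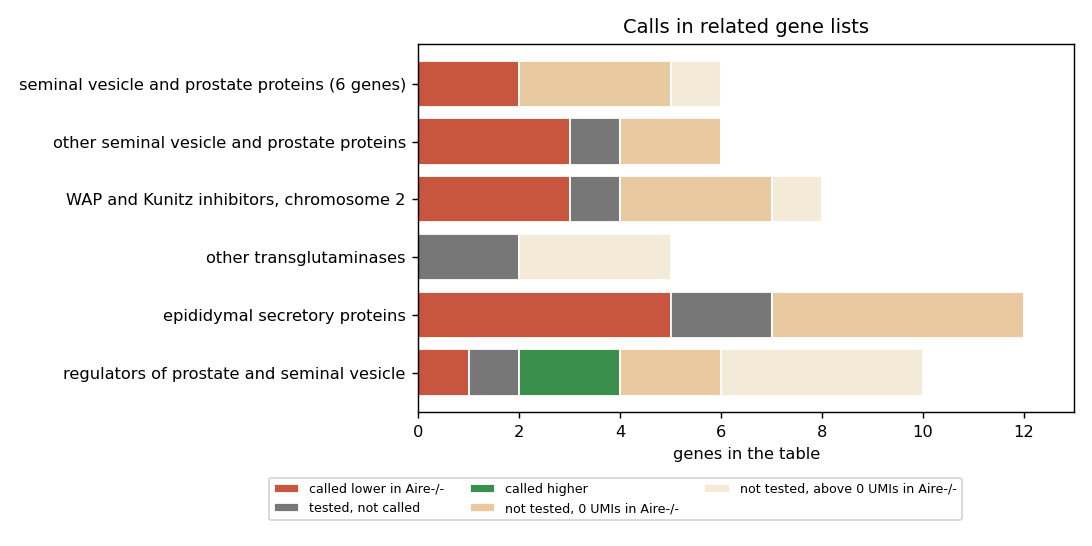
Number of genes in the table (horizontal) in the 6 genes and 5 related lists, split by edgeR call and, for untested genes, by whether all Aire-/- libraries were at 0. Of 12 epididymal genes 5 were called lower and the 5 untested ones were at 0. By contrast 2 regulators were called higher, though none by DESeq2, and no other transglutaminase was called.

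By edgeR, calls among regulators that act in these glands went in both directions, while DESeq2 called none of them higher. Of 14 listed, 10 were in the table and 4 were tested: 1 was called lower and 2 higher (1 and none by DESeq2). Over all tested genes, 12.1% were called lower and 8.59% higher. Hoxb13, the homeobox gene of prostate identity, had 90, 37 and 84 UMIs in libraries 745, 750 and 753 and 0, 1 and 0 in 746, 748 and 749 (ratio 120, counting interval 21.2 to 4748; edgeR adjusted p = 5.83e-05). Nr3c1, the glucocorticoid receptor gene, was at 17.3 ± 1.34 and 27.4 ± 1.85 CPM (SD, n = 3 each; log2 fold change 0.65, edgeR adjusted p = 0.0349). That call was lost by DESeq2, when scaled by library totals only (log2 fold change 0.45), and when any 1 library was left out (edgeR adjusted p from 0.0691 to 0.137). Foxa1, a pioneer transcription factor, was not called (log2 fold change -1.04, edgeR adjusted p = 0.0769) but was without library 749 and with library totals only (edgeR adjusted p = 0.0231 and 0.0317). Pax2 and Gata2, untested, had 33 and 28 UMIs in the Aire+/+ group and 0 in the Aire-/- group.

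Over the 6 libraries, the tested genes whose log2 CPM followed the summed level of the 6 genes most closely were Krt4, a keratin of stratified epithelium, Oas1d, Rln1, the relaxin gene, Ptpn5 and Zp3, an egg coat protein gene, with Pearson r from 0.997 to 0.998. This is a description of 6 points in 2 clusters that share depth and genotype, and 9.18% of all tested genes had an r over 0.9. Rln1, whose hormone is made in the prostate and in the ovary, had 26, 24 and 35 UMIs against 1, 0 and 0.

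Transcripts assigned to Aire were higher in the libraries labelled Aire-/- (4772 to 8372 UMIs, against 6290 to 7290; log2 fold change 1.10, edgeR adjusted p = 7.76e-05), which a tag at the 3′ end cannot set against an allele that is not described, so every direction here rests on the labels. Of 13 mTEChi markers, 9 were called higher and none lower, where 8.59% of all tested genes were called higher. Aire itself is among the 13 and among the 9. Summed over the 13, Aire included, the levels were 44077 to 52682 CPM in the Aire+/+ and 79000.4 to 92658 CPM in the Aire-/- libraries. Transcripts of these markers were thus present in both. Of 8 cortical epithelial markers, 7 were called higher (1015 to 1364 against 2350 to 2451 CPM). Of the fibroblast and endothelial markers, 2 of 7 tested were called higher (93.8 to 136 against 186 to 653 CPM), of the B cell markers 2 of 5 (111 to 141 against 111 to 229 CPM), and of the dendritic cell and macrophage markers 1 of 8 was called lower and none higher (1 and 1 by DESeq2 and at an unadjusted p under 0.05), while their summed level was higher in every Aire-/- library (1242 to 1385 against 1468 to 2399 CPM). Of 10 T cell markers none was called by edgeR or DESeq2 or had an unadjusted p under 0.05. No marker in the table was at 0 in all libraries of a genotype, and the part of these markers in the changes of the 6 genes was not tested. Gapdh had 90 UMIs in library 753 and 28 in library 746 against 2245 to 4166 in the other 4, and Sbp and Svs4 were called lower without both (edgeR adjusted p = 9.46e-05 and 0.0031). Ddx3y, a Y-linked gene, had 15 to 135 UMIs in every library, and Xist had 70 UMIs in library 745 and 0 to 6 in the others. Libraries of the same genotype were not duplicates: the chi-square over genes, per degree of freedom, was 3.02 to 6.83.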

How the data were processed

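One table of the whole series was used. Per the file headers, the authors' deposited values are raw UMI counts per gene symbol. Beside them stand normalized counts, a signal equal to the authors' counts over 1 size factor per library (checked: constant within 0.001 of its value), and log2 values and p-values of the authors' own comparison, per the file headers. Tools named in the submitters' processing notes, without roles, are HTSeq, STAR 2.4.2a, cutadapt, bcl2fastq and DESeq2, and the build named is mm10. How UMIs and multiply matching reads were treated, with which annotation and strand setting, is not given in the sources used here. Per the labels' protocols, sorted cells gave RNA taken up on Dynabeads.

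For the test, edgeR 4.0.16 under R 4.3.3 fitted the genotype alone to the counts (quasi-likelihood F-test, TMM scaling). Genes were kept by filterByExpr at min.count 10, and p-values were adjusted by Benjamini-Hochberg over the 11956 tested genes, with a threshold of 0.05. DESeq2 1.42.0 was an alternative. CPM are scaled by TMM factors, and pooled ratios use library totals. A count of 0 allows 3 UMIs, which is 1.04 to 1.10 CPM of the total in an Aire+/+ library and 1.53 to 2.96 in an Aire-/- library. Clopper-Pearson intervals have 95% confidence and cover counting error only. For the share of the highest library they do not allow for its choice as the highest. The floors cover only the counting error of the 0, with the Aire+/+ UMIs taken as counted. The likeness measure used log2(CPM + 2).

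The 6 genes, the lists and the tests were chosen with earlier results of these data known. Named genes were all 6, up to 4 genes of each related list with the smallest p (or, where fewer were tested, the most UMIs), the genes within 300 kb, and the 5 most alike, of which 1 gene is not reported here; Azgp1, 9530003J23Rik, Pax2, Gata2 and the marker ranges were added after their values were seen. Positions come from a GENCODE annotation of GRCm38, 3′ ends were compared with blastn 2.17.0, and all 6 genes matched the RefSeq promoter table by symbol. The test steps were tested on simulated data.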

Additional observations from a re-analysis of the deposited data

How the results depend on the processing

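Sbp and Svs4 were called lower under all 12 alternatives run (other scaling, filter and tool, each library left out, and libraries 753 and 746 left out), with log2 fold changes from -9.05 to -8.55 and from -7.21 to -6.84 when 1 library was left out, and -7.68 and -5.83 by DESeq2. Leaving out 1 library in turn, the genes called lower numbered 1114 to 1619 and those called higher 624 to 1084. Of the 6 genes, 2 to 2 were then called lower and 0 to 0 higher. In the related lists the number called lower was 2 to 3 for other gland proteins, 3 to 4 for the inhibitor cluster, 0 to 1 for transglutaminases, 4 to 5 for epididymal genes and 1 to 2 for regulators. Genes called higher, 1027 in all, were 567 with library totals only, where the median of all genes moved from -0.02 to -0.22, and 673 without libraries 753 and 746. With library totals only, 2048 genes were called lower (1450 with TMM scaling). With a minimum count of 3, 6 inhibitor genes, 1 transglutaminase and 3 regulators were called lower; with no filter, 5 inhibitor genes and 3 regulators; with library totals only, 2 regulators. Leaving out 1 library, the pooled ratio or bound was 26.6 to 48.6 for Sbp, 7.38 to 13.9 for Svs4, 3.02 to 6.15 for Svs5, 1.23 to 2.56 for Svs6, 0.861 to 2.79 for Svs2 (below 1, so no bound, without library 753) and 0.574 to 6.26 for Tgm4. Without libraries 753 and 746, an alternative chosen after seeing the data for these ratios, the bound was 30.5 for Sbp and 9.28 for Svs4, and 0.679 for Svs2, again no bound. Where a bound fell with an Aire-/- library left out, the smaller depth sets it. The cause of the other moves was not tested. Scaled by TMM factors instead of library totals, the ratio or bound was smaller for all 6 genes. It was 39.2 for Sbp, 10.9 for Svs4, 4.44 for Svs5, 1.81 for Svs2 and Svs6, and 2.30 for Tgm4. No paired analysis was possible because the library numbers differ between the genotypes. Depth limits Svs2, Svs6 and Tgm4 most: at their Aire+/+ rates fewer than 8 UMIs would have been counted in the Aire-/- libraries.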
